A study of Mus musculus with 6 samples.

Results

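The 45S ribosomal RNA (rRNA) gene Rn45s was examined as a window on chromosome 17, chr17:39979900-39985800 on the plus strand of mm9, in pooled single-cell libraries from mouse embryonic stem (mES) cells and mouse embryonic fibroblasts (mEF). A record is 1 alignment of 1 read, and its 5′ end is its first base in the direction of its strand. Records were taken as belonging to Rn45s when this 5′ end lay in the window on the plus strand, and the minus strand served as a control. After second copies of identical records were dropped, 45974 records met this rule, 36506 of 726631 in mES and 9468 of 456476 in mEF. The window is 1 region, against 29069 loci formed from all records by joining 5′ ends on a strand at most 500 nt apart. The window was chosen by its high share of records in these same data, so that share is given as a description and was not tested.

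The mES cells were of the line V6.5 and were grown with LIF and BME, and the mEF cells were Globalstem:GSC-6002 fibroblasts of 10.5 p.c., grown in the same serum medium with neither LIF nor BME. The cells were lysed in drops, and their RNA was reverse transcribed from oligo-dT primers that carried a cell barcode, so that the sequenced read starts where the cDNA ended and runs in the sense of the RNA. The 6 libraries are all labeled with both cell types, and the authors pooled the alignments of each cell type over them. The methods describe a split of single-cell profiles into groups by their expression, and whether these pools rest on it is not given in the sources used here. Each cell type is thus a single pool, without labeled replicates. The read names gave 3 sequencing runs, numbered by their records, which were used to compare the profile within a cell type. Runs are batches of sequencing and not replicates of a condition, and run 2 shared 95.2% of its mES window positions with run 1. Whether run 2 sequenced the libraries of run 1 again is not given in the sources used here. The likeness of runs 1 and 2 below is therefore not read as replication.

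Rn45s is transcribed by RNA polymerase I as a long precursor. A 5′ external transcribed spacer comes first, followed by the 18S rRNA of the small ribosomal subunit, and then by spacers and the rRNAs of the large subunit. The spacers are removed and degraded in the nucleolus, while mature rRNA makes up most of the RNA of a cell. Because rRNA has no regular poly(A) tail, oligo-dT priming is meant to leave most of it behind. Mouse cells carry many nearly identical copies of the gene, and records from the other copies cannot be told apart from records of the copy on chromosome 17.

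The mm9 sequence was not used here, so the name of the window was not checked against an annotation of that build, the boundary between spacer and 18S was not placed, and positions are given in mm9 and as the distance in nt from its first base. Transcripts of 2 genes of chromosome 17 in the GENCODE M21 annotation of GRCm38 are shown as reference only, and nothing in the files ties them to the window. Their stretches of A are given because the primer of the method has a run of T, followed by a last base other than T. RefSeq of GRCm38.p6 lists Rn18s-rs5 on chromosome 17, a pseudogene whose other names include Gm42418. The Gm42418 transcript is 1831 nt long with 17.7% A, and its longest stretches of A are 6 and 5 bases. The 3329 nt transcript of Gm26917, a lincRNA of chromosome 17 in the same annotation, has 8.26% A and no stretch over 4 bases, and all GENCODE transcripts together have 26.3% A. Below, capitals mark the stretch of A, with up to 25 bases on either side, from bases 185 to 240 and 45 to 99 of Gm42418 and 2099 to 2152 of Gm26917.
Gm42418, longest: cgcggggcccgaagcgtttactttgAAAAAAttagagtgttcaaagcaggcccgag
Gm42418, next: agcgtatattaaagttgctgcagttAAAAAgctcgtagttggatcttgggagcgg
Gm26917, longest: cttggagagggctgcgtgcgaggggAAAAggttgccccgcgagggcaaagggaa
These are reference letters only, and the records were not aligned to them.

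The level of Rn45s differed more between runs than between cell types. For mES, the window took 1.55% of the run 1 records (6813 of 438528), 1.52% of run 2 (3090 of 203401) and 31.4% of run 3 (26603 of 84702). For mEF, it took 0.556% of run 1 (1634 of 293937), 0.544% of run 2 (737 of 135387) and 26.1% of run 3 (7097 of 27152). Runs 1 and 2 gave nearly the same share, with a ratio of 1.02 in mES (exact 95% interval 0.980 to 1.07) and 1.02 in mEF (0.936 to 1.12). The share of run 3 was 20.4-fold that of runs 1 and 2 together in mES (19.9 to 20.8) and 47.3-fold in mEF (45.2 to 49.6). All intervals here cover counting error only, since copies made by PCR are not independent molecules.

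In each run the share was higher in mES than in mEF. The ratio of both shares stood at 2.79 for run 1 (95% interval 2.65 to 2.95), 2.79 for run 2 (2.57 to 3.03) and 1.20 for run 3 (1.17 to 1.23), and at 2.42 with all runs pooled (2.37 to 2.48). As each cell type is 1 pool, the spread between cultures is unknown and this difference has no test. The flow cell tiles gave the spread within a run, and the tiles of the cell types did not overlap in any run. In run 3 the share was 29.3% to 32.7% over 28 tiles in mES and 23.3% to 28.7% in mEF, and in run 1 it was 1.46% to 1.63% over 12 tiles and 0.491% to 0.615%. Tiles are parts of a flow cell and say nothing of other cultures. These are shares of the records of 1 pool, so more rRNA and less of the other RNA captured cannot be told apart in them, nor can a change in all cells and one in some of the cells.

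**Figure D1:**
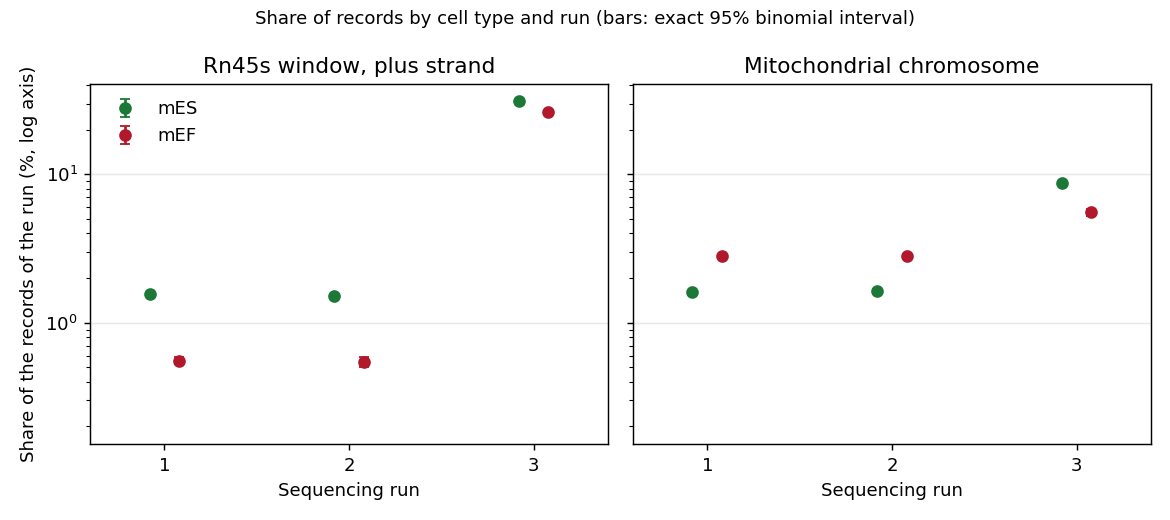
Share of the records in the Rn45s window (left) and on the mitochondrial chromosome (right), in % on a log axis, by sequencing run; points are the 6 combinations of cell type and run, and bars are exact 95% binomial intervals, mostly smaller than the points. The window lies between 0.544% and 1.55% in runs 1 and 2 and at 31.4% (mES) and 26.1% (mEF) in run 3.

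The main locus of the window, whose 5′ ends run from 39983257 to 39985742, ranked first of all loci in run 3 in both cell types. The next locus there, on the mitochondrial chromosome, took 8.50% in mES and 5.21% in mEF. In runs 1 and 2 the main locus ranked second in mES and in place 9 in mEF, behind a leading locus on chromosome 5 with 1.62% and 2.36% in run 1. The mitochondrial chromosome, which carries rRNAs of its own, also took more in run 3, at 8.72% against 1.61% in runs 1 and 2 in mES (5.41-fold, 95% interval 5.25 to 5.57) and at 5.54% against 2.80% in mEF (1.98-fold, 1.87 to 2.09). Its ratio of mES to mEF was 0.575 in runs 1 and 2 and 1.57 in run 3, so it did not keep the direction that Rn45s kept. Run 3 also differed in its ungapped alignments, all 45 nt long in the window against 35 nt in runs 1 and 2. The part of read length in these shares was not tested.

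Among the loci that passed a floor of records, few had a pattern over the 6 combinations like that of Rn45s. Of 274 loci with at least 500 records, 4 had a Pearson's r over 0.9 with it in log2(CPM + 1), where CPM is records per 1000000, and the median r was -0.78. These r values rest on 6 points that share libraries and are a description. CPM is a share of all records, so the high share of the window in run 3 by itself lowers the CPM of other loci there. How much this lowered r was not tested. The closest were a minus-strand locus on chromosome 19 from 5795832 to 5800869 (r = 0.99), the mitochondrial locus from 62 to 3781 on the plus strand (0.98) and a plus-strand locus on chromosome 6 from 3150766 to 3151528 (0.96). The chromosome 19 locus took 0.0324% of the records in mES run 1 and 0.247% in mES run 3, and 0.0228% and 0.295% in mEF. The chromosome 6 locus took 0.0251% and 1.83% in mES and 0.0228% and 1.45% in mEF. It was partly made of the same reads, as 336 of its 2223 records (15.1%) came from reads that also had a record in the window, and none of the records of the other loci did.

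The signal lay on a single strand. Over both cell types, 45974 records lay on the plus strand of the window and 2 on the minus strand, or 0.00435% (exact 95% binomial interval 0.000527 to 0.0157). Both were mES records, in run 1 at 39983167 and in run 3 at 39979986. In mEF there were 0 minus records beside 9468 plus records, which allows a share of up to 0.0317%. On the mitochondrial chromosome, minus-strand records made up 0.118% in mES and 0.0664% in mEF, and over the rest of the genome 51.0% and 53.1%. The window was thus as one-sided as the mitochondrial transcripts, or more so. The rest of the genome pools loci on both strands, so its share does not show how one-sided any single locus was. The strand share of single loci elsewhere was not compared. Just outside the window there were 0 records within 5000 nt on either side and either strand. What mm9 holds there was not examined. How much of the precursor the window of 5901 nt covers was not checked, so rRNA outside the window is not described. Inside the window, the first plus-strand 5′ end was at 39980054 in mES and 39983298 in mEF, and the last was at 39985742 in both.

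Nearly all window records had the highest mapping score that the aligner gave. Their share was 99.1% in both cell types, against 77.6% of all mES records and 77.7% of all mEF records. Of the 45974 reads in the window, 414 (0.901%) had another placement. These lay on chromosome 6 between 3150917 and 3151524 (263 records in mES, 73 in mEF) and on chromosome 10 between 82418042 and 82418119 (126 and 14), with 5 more mES records on chromosomes 16 and 19.

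Along the window, the records filled a small part of its length. Of the 60 bins of 100 nt, 26 held an mES record of run 1, 25 of run 2 and 19 of run 3, while 17, 17 and 16 held an mEF record. The 3300 nt at the start of the window held 19 mES records at 3 positions, all in runs 1 and 2, and no mEF record. The stretch from 3800 to 4599 nt, set after the profile was seen, held 93.5% of the mES and 92.6% of the mEF records of runs 1 and 2, and 99.3% and 99.4% in run 3. Before it lay 234 mES and 23 mEF records of runs 1 and 2, and 123 and 8 of run 3. After it lay 407 and 152 records of runs 1 and 2, and 61 and 37 of run 3.

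**Figure D2:**
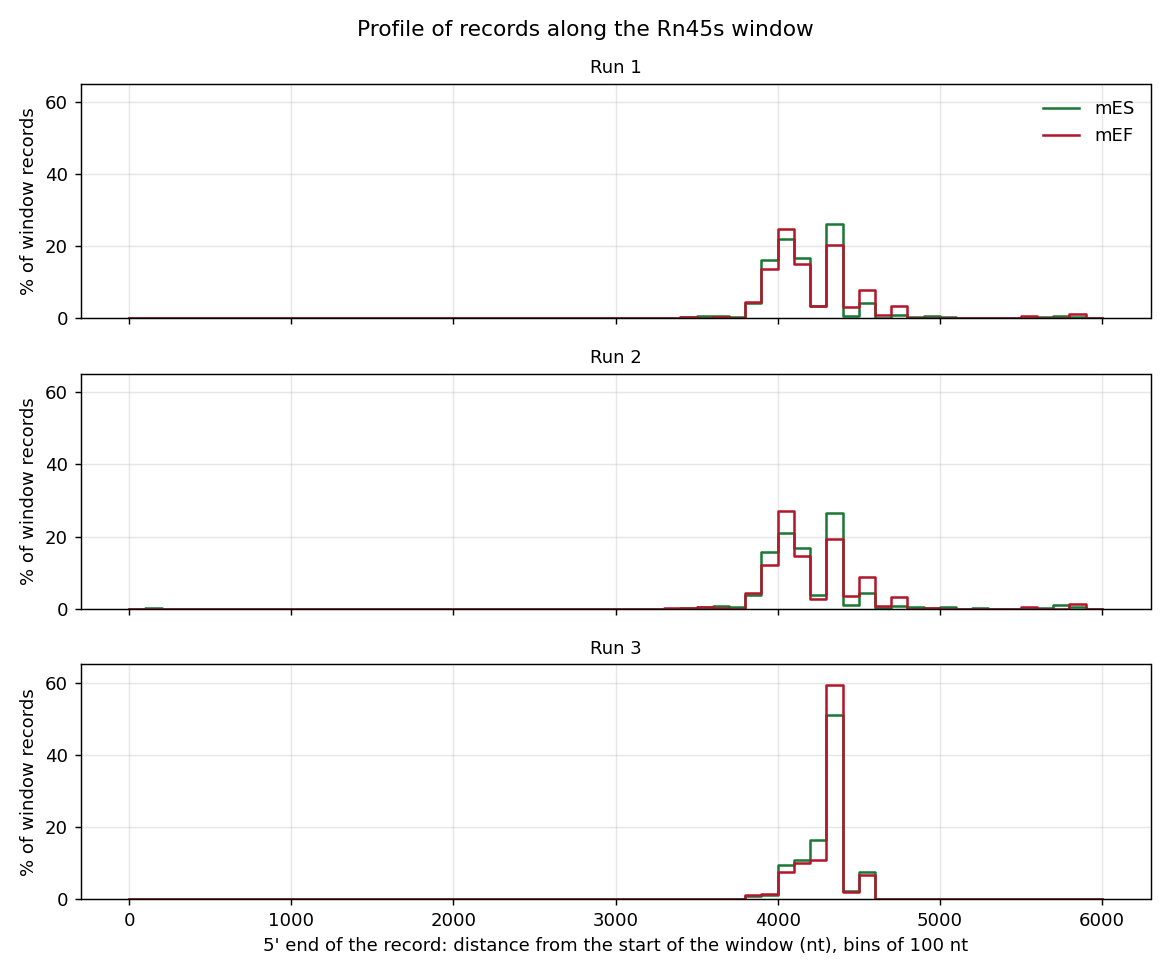
Profile along the Rn45s window: the share of the window's records in each bin of 100 nt (% of the records of that cell type and run) against the distance of the 5′ end from the window's start in nt, for mES (green) and mEF (red), by run. Runs 1 and 2 peak both at 4000 and at 4300 nt, and run 3 peaks at 4300 nt, with 51.0% in mES and 59.2% in mEF.

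Along the window, run 3 was shifted downstream in both cell types, in medians taken over all window records. Its alignments were also longer, and the part of read length in this shift was not tested. The median mES 5′ end lay at 4108 nt (run 1), 4133 nt (run 2) and 4318 nt (run 3), and the median mEF 5′ end at 4133, 4133 and 4333 nt. The bin at 4300 nt (chr17:39984200-39984299) was the fullest in run 3, with 51.0% of the mES records (13558; 95% interval 50.4 to 51.6) and 59.2% of the mEF records (4204; 58.1 to 60.4). With runs 1 and 2 together, it held 26.3% in mES (2600; 25.4 to 27.1) and 474 of 2371 records in mEF (95% interval of the share 18.4% to 21.7%). The bin at 4000 nt (chr17:39983900-39983999) went the other way. It held 21.6% in mES and 25.5% in mEF in runs 1 and 2, where it was the fullest bin of mEF, and 9.39% and 7.68% in run 3. The bin at 4100 nt (chr17:39984000-39984099) held 16.7% and 14.9% in runs 1 and 2 and 11.0% and 10.1% in run 3. The bin at 4200 nt (chr17:39984100-39984199), between both peaks, held 3.52% and 3.25% in runs 1 and 2 but 16.3% in mES and 10.8% in mEF in run 3.

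**Figure D3:**
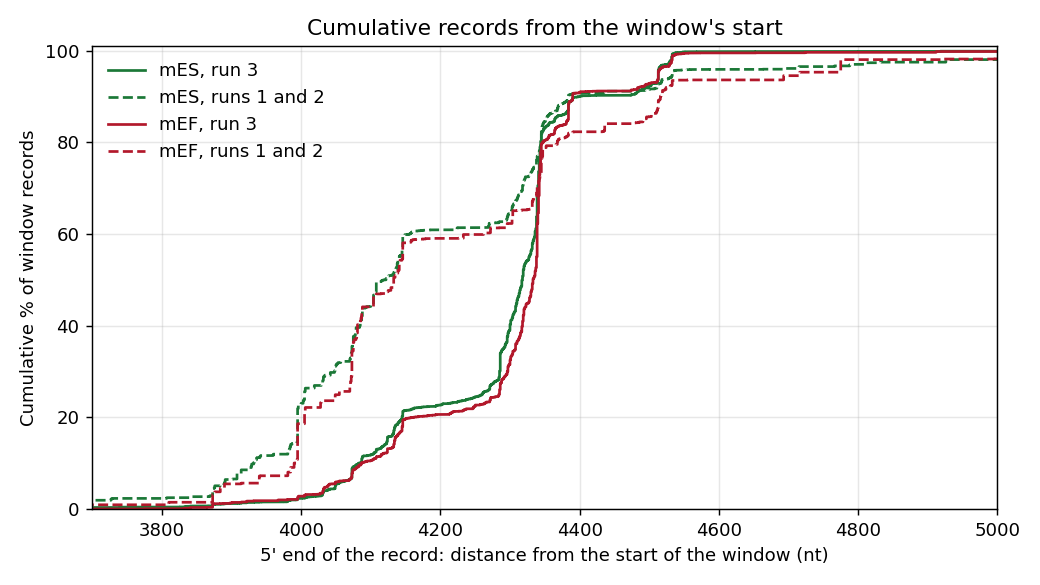
Cumulative share of the window's records (%) against the distance of the 5′ end from the window's start (nt), shown from 3700 to 5000 nt, for mES (green) and mEF (red) in run 3 (solid) and in runs 1 and 2 together (dashed). The medians lie at 4118 and 4133 nt in runs 1 and 2 and at 4318 and 4333 nt in run 3, so that the curves pair by run and not by cell type.

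The profile of run 3 was more like that of run 3 in the other cell type than like those of runs 1 and 2 in its own, while runs 1 and 2 were the most alike within a cell type. Over the 60 bins, Pearson's r of the mES with the mEF profile was 0.98 (run 1), 0.95 (run 2) and 0.99 (run 3). Within a cell type, run 1 and run 3 gave r = 0.77 (mES) and 0.66 (mEF), while runs 1 and 2 gave 0.999 and 0.996. Over single positions with a record in either set, r between mES and mEF was 0.90 in run 3 (563 positions) and 0.74 in runs 1 and 2 together (367 positions), and between run 3 and runs 1 and 2 it was 0.31 in mES (603 positions) and 0.22 in mEF (379 positions). These values are a description, as neighbouring bins and positions are not independent. Bins that were empty in both sets entered r, and without them it was 0.99 between cell types in run 3 (19 bins) and 0.75 between runs 1 and 3 in mES (27 bins). Of the 10 positions with the most records, mES and mEF shared 8 in run 3 and 7 in runs 1 and 2, while run 3 and runs 1 and 2 shared 1 in each cell type.

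At the resolution of single positions, the records stood at sharp sites. The records carry no barcode, so PCR copies of 1 cDNA and separate molecules with the same end cannot be told apart. A full position is therefore a count of records and not of molecules. In run 3 the fullest position in both cell types was 39984239 (4339 nt), with 1316 mES records (4.95%) and 512 mEF records (7.21%). It ranked in places 24 and 14 in runs 1 and 2, with 83 (0.838%) and 39 (1.64%) records. The 10 nt from 39984236 to 39984245 held 22.5% of the mES records of run 3 (95% interval 22.0 to 23.0) and 28.8% of the mEF records (27.7 to 29.8), against 8.39% and 8.35% in runs 1 and 2. Next to the leading site were 39984241, with 804 mES and 266 mEF records of run 3, and 39984242, with 803 and 320. In runs 1 and 2 the fullest position in both cell types was instead 39983895 (3995 nt), with 725 mES records (7.32%) and 185 mEF records (7.80%). It was minor in run 3, with 75 (0.282%) and 31 (0.437%) records.

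Other leading positions of runs 1 and 2 were nearer in share between cell types and runs. Position 39984046 (4146 nt) held 2.95% of the mES and 3.50% of the mEF records of runs 1 and 2, and 1.07% and 1.38% of those of run 3. Position 39984245 (4345 nt) held 2.93% and 3.37% in runs 1 and 2 and 1.64% and 1.61% in run 3. Among the named positions, which are the 3 fullest of each set, the cell types differed more at 2. Position 39984186 (4286 nt) was second in mES in run 3, with 1040 records (3.91%), and in place 12 in mEF, with 95 records (1.34%); in runs 1 and 2 it had 4 mES records and 0 mEF records. Position 39983973 (4073 nt) held 2.09% of the mES and 0.972% of the mEF records in run 3, and 1.48% and 5.53% in runs 1 and 2, so the order of the cell types at this position was opposite in the run sets. Less full positions differed as well. In runs 1 and 2, 39984675 (4775 nt) held 65 mEF records (2.74%) and 0 mES records, and 39983808 (3908 nt) held 117 mES records (1.18%) and 0 mEF records.

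**Figure D4:**
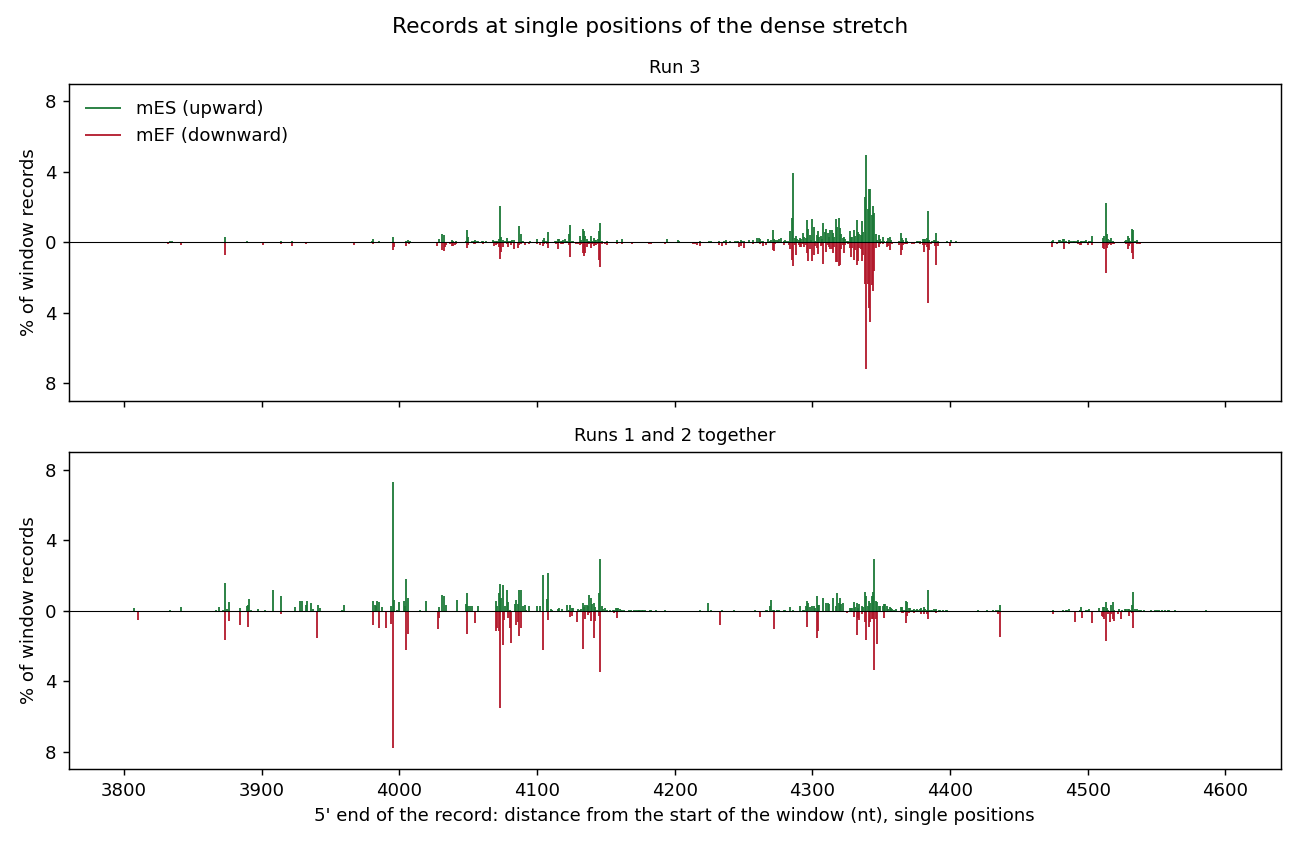
Share of the window's records at single positions (%, mES upward and mEF downward) against the distance of the 5′ end from the window's start (nt) in the dense stretch, for run 3 (top) and runs 1 and 2 together (bottom). In run 3 the largest line is at 4339 nt in both cell types (4.95% and 7.21%), and in runs 1 and 2 it is at 3995 nt (7.32% and 7.80%).

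Before 4600 nt, a cut set after the profile was seen, the last position with at least 10 records lay at nearly the same place in all sets. The cut bounds this position from above, so its nearness between sets is partly built in. The floor of 10 records was not scaled to the depth of a set. Records of runs 1 and 2 did not end there. Their bin at 4700 nt held 88 mES and 83 mEF records (0.889% and 3.50%), beside 85 and 77 in the bin at 4400 nt. The last position before 4600 nt with at least 10 records was at 4539 nt (39984439) in mES and 4533 nt (39984433) in mEF in run 3, and at 4534 nt (39984434) and 4533 nt in runs 1 and 2. The bin at 4500 nt held 2010 mES and 478 mEF records of run 3, and the bin at 4600 nt held 2 and 2. Runs 1 and 2 gave these bins 430 and 191 records, and then 20 and 22. Further downstream, 2 positions in each cell type reached 10 records in run 3, with at most 12. For runs 1 and 2, 15 mES and 6 mEF positions did, with at most 55 records in mES, at 39984826, and 65 in mEF, at 39984675.

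The number of positions in use approached its limit in the densest bin. In run 3, a 5′ end lay on 97 of the 100 positions of the bin at 4300 nt in mES and on 89 in mEF, and over the window on 529 and 336 positions. Runs 1 and 2 together used 333 and 154 positions. At equal depth, thinned to 7097 records, the expected number in run 3 was 439 positions in mES against 336 in mEF. At 737 records it was 213 in mES and 189 in mEF in run 3, 199.6 and 119 in run 1, and 199.9 and 121 in run 2. Drawing records does not remove PCR copies, so equal depth in records need not be equal depth in molecules. As a share of all positions with a record in run 3, the window took 3.77% in mES (529 of 14024) and 5.93% in mEF (336 of 5662), the opposite order to its share of records. The number of all positions differs with depth, and this share was not compared at equal depth. The records were nonetheless uneven over these positions, as 50% of them lay on 31 positions in mES and 26 in mEF in run 3. The 10 fullest positions held 27.5% and 32.1%. There were 50.3 records per position in the window and 4.31 elsewhere in mES of run 3, and 21.1 and 3.77 in mEF. In run 1 they were 21.3 and 11.2 in mES, and 11.3 and 15.4 in mEF, where the window was below the rest.

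**Figure D5:**
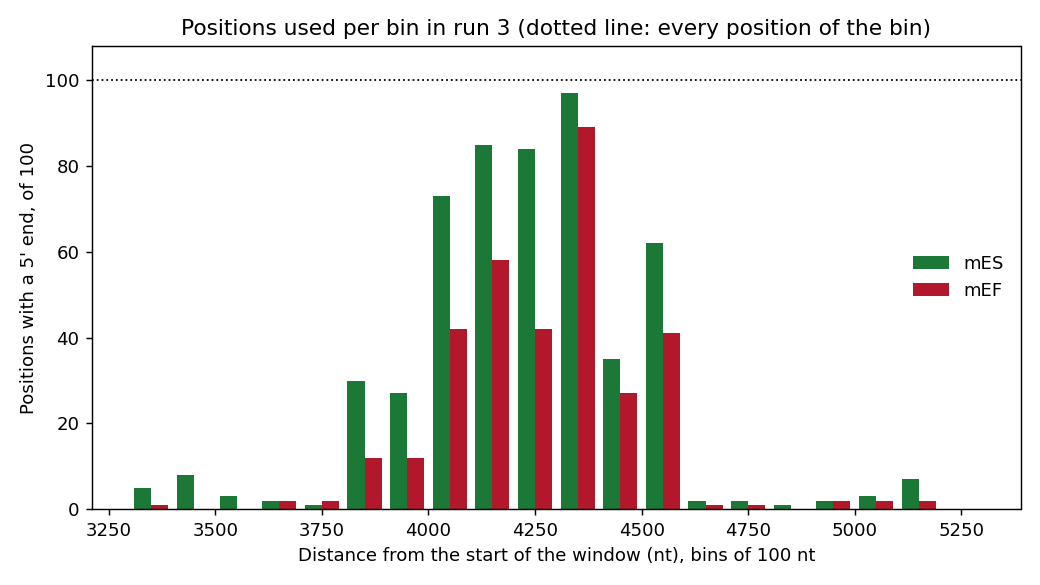
Number of the 100 positions of each bin with at least 1 record 5′ end in run 3, for mES (green) and mEF (red), against the distance from the window's start (nt). The bin at 4300 nt has 97 and 89 used positions, close to the dotted line that marks all positions of a bin.

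The smaller set of positions lay mostly within the larger one. Part of this overlap is forced where a bin is nearly full. The bin at 4300 nt had 97 used positions in mES and 89 in mEF in run 3. The overlap expected from the number of used positions per bin was not computed. The shares of positions below are therefore a description and are not read as likeness of the sets. In run 3, 302 positions were used in both cell types, which is 57.1% of the mES and 89.9% of the mEF positions, and they held 90.7% and 97.6% of the records. In runs 1 and 2, 120 positions were shared, 36.0% and 77.9%, with 60.6% and 82.3% of the records. Between run 3 and runs 1 and 2, mES shared 259 positions, which is 49.0% of those of run 3 and 77.8% of the others, and mEF shared 111, which is 33.0% and 72.1%.

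Second copies of identical records, which were dropped above, occurred in run 3 only. In the window, 31.0% of the mES reads and 17.1% of the mEF reads of run 3 were listed 2 times, against 27.3% and 6.57% elsewhere. Among window positions with at least 20 reads, 188 of 211 in mES and 59 of 79 in mEF held both doubled and single reads. In mES 18 positions had no doubled read and 5 had all reads doubled, and in mEF 20 and 0. At 39984239, 401 of 1316 mES reads (30.5%) and 126 of 512 mEF reads (24.6%) were doubled, and at 39984186 it was 353 of 1040 (33.9%) and 31 of 95 (32.6%).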

How the data were processed

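Barcoded cDNA of single mES and mEF cells was sequenced. The authors aligned the reads with TopHat (version not given in the sources used here) to mm9, per the labels, and deposited the alignments pooled by cell type, with position, strand, read name and a mapping score. The records carry no barcode or library, so single cells were not analysed. Markers and other genes of the rRNA pathway were not analysed here, as no mm9 annotation was used. The 5′ base of a record was its leftmost base if on the plus strand and its rightmost if on the minus strand, counted from 1. Runs were read from the read names. Second records of a read with the same coordinates and strand were dropped. Shares have exact 95% binomial intervals, and ratios have exact intervals conditional on the sum of both counts. The floor for 0 counts was 3 counts. Depth was 726631 mES records of 612194 reads and 456476 mEF records of 387359 reads. Positions at equal depth are expected numbers for drawing without replacement. Positions and bins named are the 3 with the most records per cell type in run 3 and in runs 1 and 2, and the similar loci are the 3 with the highest r. The window, lists and settings were chosen with earlier results of these data known. Alternatives are given in the closing section. The steps were tested on simulated data. Python 3.11.15, numpy 2.4.6, pandas 2.3.3, scipy 1.17.1 and matplotlib 3.10.9 were used.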

Additional observations from a re-analysis of the deposited data

How the results depend on the processing

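The alternatives were planned with earlier results of these data known. No test was involved, so a value counts as moved when it leaves its counting interval, which is narrow at this depth. The r values of the profile have no such interval and count as moved when their rounded value changes. The share of the window, 5.02% in mES and 2.07% in mEF, was 5.96% and 2.33% with second copies kept, 6.42% and 2.65% with the highest mapping score only, 5.15% and 2.14% in a total without the mitochondrial chromosome, 3.91% and 1.53% without the 10 positions with the most records, 1.12% and 1.50% in distinct positions, and 1.54% and 0.552% without run 3. In run 3, 31.4% and 26.1% were 32.0% and 28.0%, 36.7% and 30.7%, 34.4% and 27.7%, 24.9% and 19.8%, and 3.77% and 5.93% under the first 5 of these. The log2 ratio of mES to mEF, 1.28, was 1.36 with second copies kept, 1.36 without the 10 positions, 1.48 without run 3 and -0.43 in distinct positions, where it was reversed. In run 3, 0.26 was 0.19 with second copies kept, 0.31 without the mitochondrial chromosome, 0.34 without the 10 positions and -0.65 in distinct positions, also reversed. The cause of both reversals was not tested. Both log2 ratios stayed within their interval with the highest mapping score, as did the pooled one without the mitochondrial chromosome.

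The minus-strand share stayed within its interval except in distinct positions, where it was 0.310%. The r of the profile between cell types in run 3, 0.990, was 0.988 with bins of 50 nt, 0.999 with bins of 200 nt, 0.966 in log2(share + 0.01), 0.968 in distinct positions and 0.986 with second copies kept. Between run 1 and run 3 in mES, 0.767 was 0.768, 0.740, 0.837, 0.935 and 0.766 in the same order. The cause of the rise in distinct positions was not tested. The median 5′ end, 4308 nt in mES and 4325 nt in mEF, was 4236 and 4294 nt in distinct positions, 4318 and 4333 nt in run 3 only and 4118 and 4133 nt without run 3. With second copies kept it was 4310 nt in mES and within its interval in mEF. No paired analysis was possible because the pools carry no replicate numbers and no result comes from a test. The 1 pool per cell type and the missing barcodes limit what these values say about other cultures.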
